A study of Mus musculus with 23 samples.

Results

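The hypothalamic region (HT) was compared with the frontal cortex (FC) of mice kept on standard chow (SC). The comparison rests on 8 of the 23 arrays of the series, 4 HT and 4 FC arrays chosen by their labels alone, and both regions came from the same 4 mice, L52, L54, L56 and L58. The mice were female C57BL/6 animals without a transgene, labeled 5 weeks old, which the methods give as the age at the start. They formed the lean group, received SC alone for 8 weeks and completed an 11-d test battery before dissection. The same regions of the obese group, 4 HT and 3 FC arrays of mice O52 to O58, served as a comparison in other animals. These mice chose freely between SC and a chocolate mixture (CM). The striatum (ST) arrays were not part of the contrast. They entered the normalization, the filter, the choice of transcript for each gene and the estimate of the spread. RNA of 1 dissected region of 1 mouse was hybridized to each single-color Agilent array. The values are normalized log2 probe brightness, on which a difference of 1 is a 2-fold change, and they cannot be compared between probes. The tissue label of the HT arrays reads thalamic region, whereas the treatment text and the methods name the hypothalamus, and the borders of the dissection are not given in the sources used here. The name HT was kept, and genes of both structures were examined.

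The hypothalamus lies at the base of the diencephalon and holds scattered groups of neurons that make peptide hormones and transmitters, among them the orexin and melanin-concentrating hormone neurons of its lateral part and the oxytocin and vasopressin neurons of its magnocellular nuclei. The thalamus lies directly above it and consists mainly of glutamatergic relay neurons that depend on transcription factors such as Tcf7l2 and Gbx2. The cortex is built of glutamatergic projection neurons of another lineage, marked by Emx1, Tbr1 and the Neurod factors. In bulk tissue, fewer cells of a type and less RNA per cell cannot be told apart.

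Several of the arrays stood apart from their group. On the HT array of mouse L58 the 21 thalamic genes averaged 9.78, against 10.49 to 11.02 on the other 3. The arcuate peptide genes Pomc, Agrp and Kiss1, singled out after their values were seen, were raised on it. The HT array of mouse L54 had the lowest orexin, melanin-concentrating hormone and oxytocin signals of its group. Its mean of the 15 striatal genes was 10.40, against 9.26 to 9.39 on the other HT arrays. On the FC arrays of mice L52, L54, L56 and L58 that mean was 8.86, 10.35, 10.72 and 10.61. The FC array of mouse L54 carried olfactory bulb genes, with a mean over 6 genes of 11.44 against 6.60 to 7.13. The ST array of mouse L52 carried Hcrt at 15.45 and Pmch at 14.40, near HT levels. Region was also tied to the slide, since 3 of the FC arrays lay on slide 1 and 3 of the HT arrays on slide 3, and only slide 2 held an array of both, HT of mouse L58 and FC of mouse L52. Values after slide adjustment, in which each slide has its own term in the model, and values within slide 2 are therefore given beside the results. Between 36432 and 38472 spots were well above background on the FC arrays and between 40330 and 42232 on the HT arrays, no spot outside the controls was saturated, and the number of arrays limits the precision.

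Region separated the samples at many genes. Of 31395 transcripts tested with limma, 2603 (8.29%) were called, meaning at least 2-fold different at an adjusted p under 0.01. Of these, 1359 (4.33% of those tested) were higher in HT and 1244 (3.96%) were higher in FC, and the median difference of all transcripts was 0.02. The 4 HT and 4 FC arrays did not overlap at 10160 transcripts (32.4%), of which 5002 (15.9%) were higher in HT and 5158 (16.4%) in FC. Scaling each array to the 75th percentile of the scanner's processed signal moved the median of all transcripts to 0.10 and the share of calls higher in HT from 52.2% to 69.3%. Without the FC array of mouse L54 and the HT array of mouse L58 2509 transcripts were called, and 2622 without the ST array of mouse L52. After slide adjustment 1633 transcripts (5.2%) were called, 1145 of them shared with the model without it, which is 44% of the 2603 and 70.1% of the 1633. The sign was kept by 92.9% of the 2603 in that model and by 91.9% within slide 2, against 71.9% and 70.7% of all transcripts. The calls, the slide model and the slide 2 pair share arrays, so these percentages are no independent check of the calls.

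Single peptide genes had the largest differences, while the thalamic list held more of the leading genes and had the larger median (2.57 against 0.59). Among 17139 genes with a name, the melanin-concentrating hormone gene Pmch ranked 1, the orexin gene Hcrt 2 and the oxytocin gene Oxt 5, and the thalamic genes Gbx2, Prkcd, Slitrk6 and Tcf7l2 ranked 7, 8, 10 and 16. The 100 genes with the largest excess in HT held 6 of 28 hypothalamic peptide genes, 6 of 30 hypothalamic transcription factors and 13 of 21 thalamic genes. Among the 14259 named genes well above background on all 8 arrays, which leaves out Gbx2, the numbers were 9, 1 and 10. Over all named genes the numbers without the HT array of mouse L58 were 4, 6 and 16, without that of mouse L54 8, 9 and 11, and after slide adjustment 7, 11 and 9. Of the lists, 9 of 28 peptide genes, 13 of 30 transcription factors and 19 of 21 thalamic genes were called higher in HT, against the 4.33% of all transcripts given above. The HT arrays thus carried genes of both structures, and the values follow by group.

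The marker genes separated the regions on nearly every array. Array values are given for mice L52, L54, L56 and L58 in that order, and ± marks the SE of the fitted difference of 4 and 4 arrays, in which arrays carry unequal weight. Hcrt, the precursor of the wake-promoting orexins (probe at chr11:100623007-100623066, mm9), read 16.73, 13.24, 16.65 and 16.61 in HT and 7.73, 8.91, 7.46 and 9.10 in FC. Every HT array lay far above every FC array, and that of mouse L54 was the lowest of the HT group. The fitted difference was 7.47 ± 1.34, or 178-fold (adjusted p = 0.000186), 8.38 without the HT array of mouse L54, 11.55 ± 2.32 after slide adjustment and 8.88 within slide 2. Pmch, the precursor of the feeding peptide melanin-concentrating hormone (chr10:87555031-87555090), read 15.33, 13.62, 15.90 and 15.79 in HT and 6.82, 7.53, 6.43 and 7.74 in FC. The groups were again far apart with mouse L54 lowest in HT, and the difference was 8.06 ± 1.32, or 268-fold (adjusted p = 7.78e-05). It was 10.46 ± 2.34 after slide adjustment (adjusted p = 0.00556).

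Oxt, which encodes oxytocin and its carrier neurophysin (chr2:130402665-130402724), was the least uniform of these markers. It read 13.84, 9.29, 15.38 and 16.72 in HT and 7.87, 7.17, 7.65 and 9.43 in FC. The HT array of mouse L54 lay below the FC array of mouse L58, so the groups overlapped. The difference was 5.60 ± 1.49, or 48.4-fold (adjusted p = 0.00516), and the call was lost after slide adjustment (10.04 ± 2.47, adjusted p = 0.0103). It was also lost without the FC array of mouse L54 (adjusted p = 0.0174) or L56 (0.0231) and without the HT array of mouse L56 (0.0238) or L58 (0.0173), with a difference of at least 4.71 each time.

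Tcf7l2, a Wnt pathway transcription factor of thalamic neurons (chr19:55994029-55994088), read 12.35, 12.88, 11.57 and 10.48 in HT and 7.44, 7.25, 7.62 and 7.93 in FC. The groups did not overlap, and mouse L58 was lowest in HT and highest in FC. The difference was 4.28 ± 0.52, or 19.4-fold (adjusted p = 2.99e-06), and all 3 transcripts of the gene were called. Tbr1, a transcription factor of deep-layer cortical projection neurons (chr2:61644054-61644113), read 7.61, 7.22, 8.22 and 7.48 in HT and 11.61, 11.03, 11.56 and 11.31 in FC. The spread within each group was small beside the gap, and the difference was -3.65 ± 0.56 (adjusted p = 3.74e-05), 12.5-fold higher in FC.

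**Figure D1:**
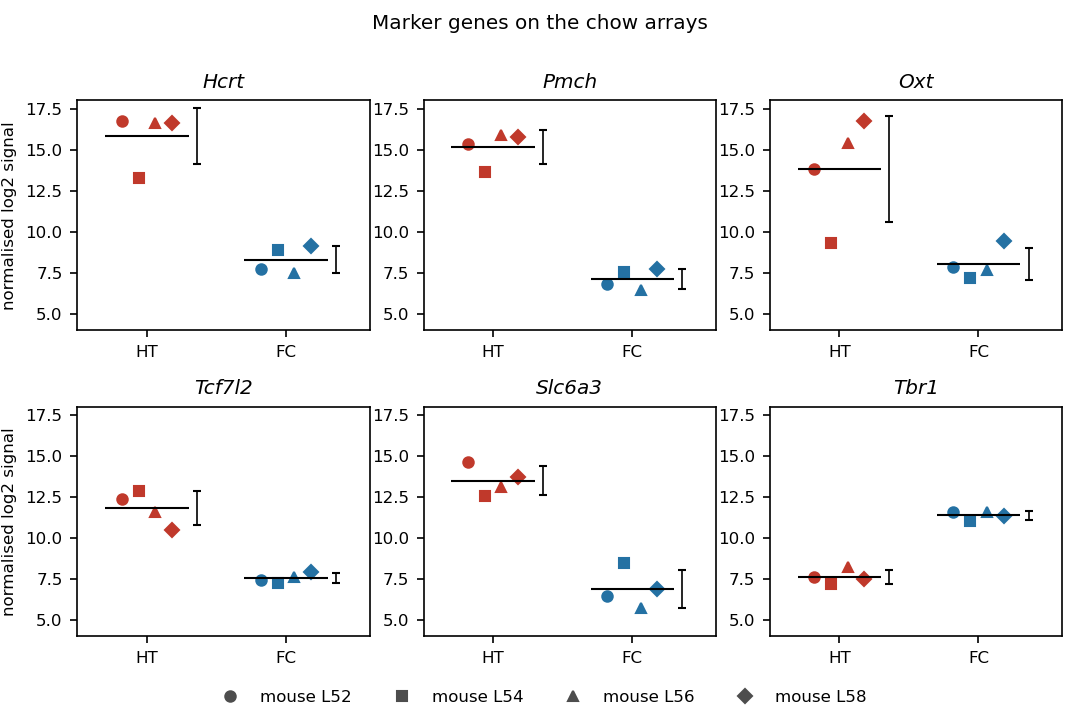
Normalized log2 signal (y axis) of 6 genes on the 4 HT and 4 FC arrays of the chow mice (x axis), with a symbol for each mouse, a line at the mean and a bar of ± 1 SD beside it. Hcrt and Pmch are at 13.24 or more on all HT arrays, Oxt of mouse L54 is down at 9.29, and Tbr1 is the gene that is higher in FC.

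The promoters of the 3 peptide genes that lead the HT arrays are shown because these genes ranked 1, 2 and 5 among the named genes. Each run holds the 250 bases before the annotated start, 5′ to 3′ on the gene's strand, from RefSeq on GRCm38.p6, at chr11:100762932-100763181 (minus strand) for Hcrt, chr10:88090822-88091071 (plus strand) for Pmch and chr2:130575919-130576168 (plus strand) for Oxt. Capitals mark TATAAA, the core of a TATA box, and TGACC or its reverse complement GGTCA, a core motif of nuclear receptor sites, both searched on both strands.
Hcrt: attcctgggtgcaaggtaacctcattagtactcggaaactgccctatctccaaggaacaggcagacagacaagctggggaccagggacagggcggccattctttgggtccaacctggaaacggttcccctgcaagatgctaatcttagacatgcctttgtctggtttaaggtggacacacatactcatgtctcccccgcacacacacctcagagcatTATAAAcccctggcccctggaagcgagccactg
Pmch: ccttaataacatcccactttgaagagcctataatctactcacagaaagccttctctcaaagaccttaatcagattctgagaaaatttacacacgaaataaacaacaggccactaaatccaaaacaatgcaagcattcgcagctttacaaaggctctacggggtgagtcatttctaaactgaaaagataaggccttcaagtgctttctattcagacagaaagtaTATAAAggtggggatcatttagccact
Oxt: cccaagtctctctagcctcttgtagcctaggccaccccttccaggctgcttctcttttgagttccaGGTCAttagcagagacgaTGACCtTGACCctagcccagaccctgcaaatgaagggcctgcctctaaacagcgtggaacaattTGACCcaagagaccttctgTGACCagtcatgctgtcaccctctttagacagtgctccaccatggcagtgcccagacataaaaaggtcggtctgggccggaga
TATAAA began 33 bases before the start of Hcrt and 27 bases before that of Pmch, and it was not found in the Oxt window. TGACC was found in the Oxt window alone, at 166, 160, 102 and 83 bases before the start and as GGTCA at 184. Of 32851 promoters of the same length, 12.4% held TATAAA and 35.2% held TGACC, so a match is a description of these letters only.

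Other hypothalamic peptides were higher in HT by smaller amounts. Called besides the 3 above were Ghrh (growth hormone-releasing hormone, 2.67 ± 0.50), Gal (galanin, 2.59 ± 0.33), Cartpt (the feeding peptide CART, 2.18 ± 0.52), Nts (neurotensin, 2.08 ± 0.51), Tac2 (neurokinin B, 1.86 ± 0.37) and Nms (neuromedin S). Galanin read 12.01, 11.15, 12.21 and 13.19 in HT and 10.04, 9.87, 9.01 and 9.47 in FC, with no overlap. Nms was not well above background on any FC array, and its fitted difference of 1.82 ± 0.22, or 3.53-fold (adjusted p = 2.84e-06), is approximate. The calls of Cartpt and Nts were lost without the FC array of mouse L56 (adjusted p = 0.0406 and 0.0229), and those of Cartpt and Tac2 after slide adjustment (0.0194 and 0.0233). The median over the 28 peptide genes was 0.59, against 0.02 over all transcripts. It was 0.087 without the HT array of mouse L58 and 1.49 after slide adjustment.

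Of the 28 peptide genes, 4 that are also made by cortical interneurons were called higher in FC (against 3.96% of all transcripts). They were Vip (vasoactive intestinal peptide, -3.41 ± 0.60), Npy (neuropeptide Y, -2.92 ± 0.29), Cck (cholecystokinin, -1.43 ± 0.39) and Sst (somatostatin, -1.18 ± 0.25). Npy read 9.69, 10.46, 10.39 and 10.63 in HT and 13.54, 13.09, 13.27 and 13.16 in FC, with no overlap. The call of Cck was lost without any 1 of 7 of the 8 arrays, the exception being the HT array of mouse L54 (adjusted p up to 0.0205), and those of Vip, Cck and Sst were lost after slide adjustment (0.0281, 0.029 and 0.0134). The opioid precursors Penk (-1.01 ± 0.56) and Pdyn (-0.47 ± 0.29), the stress peptide gene Crh (-0.73 ± 0.28) and Tac1 (-0.16 ± 0.40) were not called.

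Pomc, Agrp and Kiss1 each had 1 HT array far above the other 3, that of mouse L58. Pomc, the melanocortin precursor of the arcuate nucleus (chr12:3960413-3960472), read 9.57, 9.49, 9.43 and 12.80 in HT and between 9.07 and 9.85 in FC. Agrp, the melanocortin antagonist of neighboring arcuate neurons (chr8:108090600-108090659), read 6.84, 6.74, 6.53 and 10.89 in HT and between 6.31 and 6.66 in FC. For both genes the HT array of mouse L58 stood far above all other arrays, and the fitted differences of 0.48 ± 0.75 and 0.81 ± 0.79 were not called (adjusted p = 0.638 and 0.433). Without that array they were -0.04 and 0.17. Kiss1, the kisspeptin gene, read 5.99, 5.43, 6.02 and 9.55 in HT and between 8.44 and 8.83 in FC, so that mouse L58 was above the FC range and the other 3 below it. Its difference of -2.22 ± 0.66 missed the threshold (adjusted p = 0.0104), and without the HT array of mouse L58 it was -2.83 (adjusted p = 8.12e-05).

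Vasopressin showed the same kind of scatter. Avp (chr2:130406552-130406817) read 9.02, 7.87, 13.50 and 14.31 in HT and 5.85, 5.69, 5.98 and 10.07 in FC. Mice L56 and L58 were high in HT, mouse L54 was low, and the FC array of mouse L58 lay above the HT arrays of L52 and L54. The difference of 4.13 ± 1.66 did not pass (adjusted p = 0.0509). Trh, the thyrotropin-releasing hormone gene, read 11.87, 9.60, 12.87 and 13.60 in HT and 8.19, 12.17, 8.50 and 9.36 in FC, where mouse L54 was lowest in HT and highest in FC. Its difference of 2.43 ± 0.79 was not called (adjusted p = 0.0183), but it was without the HT array (3.22, adjusted p = 0.00118) or the FC array (3.15, adjusted p = 0.00383) of that mouse.

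**Figure D2:**
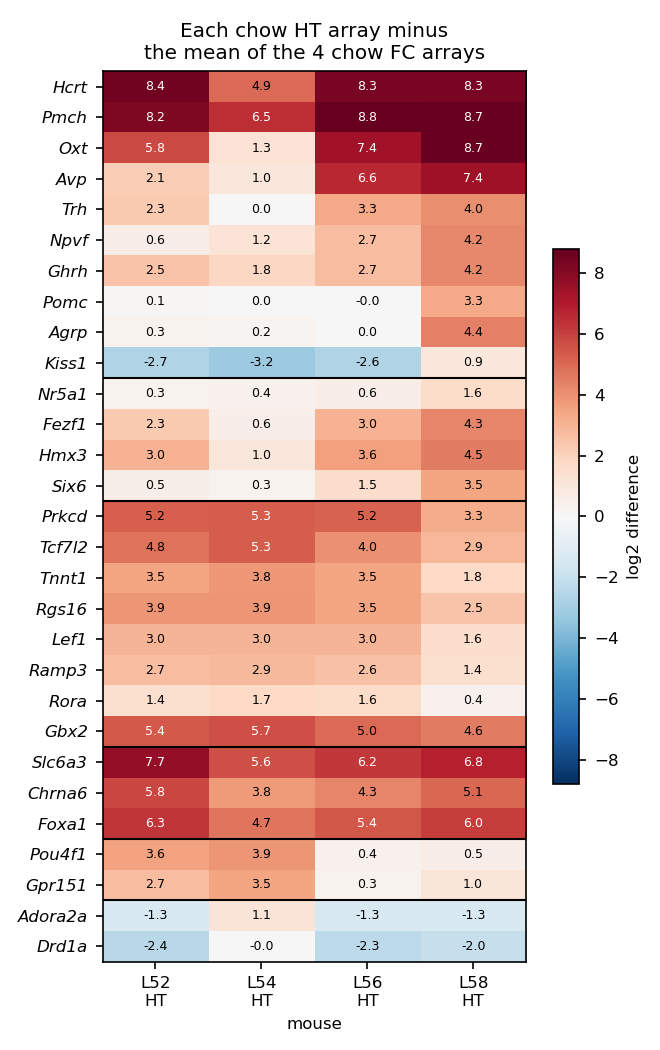
Log2 difference of each chow HT array (columns, by mouse) from the mean of the 4 chow FC arrays for 29 genes (rows, from top: peptides, hypothalamic transcription factors, thalamic, dopamine neuron, habenular and striatal genes). Pomc and Agrp exceed the FC mean most on the array of mouse L58 (3.34 and 4.39, against 0.33 or less on the other 3), and Hcrt, Pmch and Oxt are weakest in mouse L54.

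Transcription factors of hypothalamic nuclei were called higher in HT in 13 of 30 cases and higher in FC in none, with a median difference of 1.44. Foxb1, a factor of the mammillary region, read 7.79, 7.76, 8.22 and 9.45 in HT and 3.89, 3.52, 4.06 and 4.60 in FC, where no array was well above background. The fitted difference of 4.12 ± 0.63, or 17.3-fold (adjusted p = 3.75e-05), is therefore approximate. Lhx9 read 9.62, 10.41, 9.40 and 9.09 in HT and 5.05, 5.98, 5.61 and 6.39 in FC, with a difference of 3.79 ± 0.32 (adjusted p = 4.46e-08). Lmx1a is known from the posterior hypothalamus and from midbrain dopamine neurons. It was not well above background on any FC array, and its fitted difference of 3.27 ± 0.56 is approximate. Isl1, an arcuate and striatal factor, was higher by 2.07 ± 0.45, and Nkx2-1, which specifies the ventral hypothalamus, by 2.29 ± 0.47. Nkx2-1, Hmx3, Six6, Nr0b1 and Rax were highest in HT on the array of mouse L58, at 8.06, 9.50, 7.42, 6.33 and 6.73. These 5 genes and Nr5a1, the ventromedial nucleus factor, were singled out after their values were seen. Nr5a1 read 8.21, 8.30, 8.50 and 9.55 in HT and 7.85 to 8.10 in FC and was not called (0.64 ± 0.32, adjusted p = 0.111). Dlx1, Dlx2 and Dlx5, which mark forebrain interneurons as well, were not called and were highest in FC on the array of mouse L54, at 11.52, 11.03 and 9.02.

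Thalamic genes were called higher in HT in 19 of 21 cases, and their median difference of 2.57 was exceeded only by that of the dopamine neuron list described below. Gbx2, a homeobox factor of thalamic progenitors and neurons (chr1:91825013-91825072), read 10.07, 10.39, 9.67 and 9.28 in HT and 4.02, 4.54, 4.26 and 6.0 in FC. Of the FC arrays 1 of 4 was well above background, and the difference was 5.05 ± 0.40 (adjusted p = 2.13e-08). Prkcd, protein kinase C delta of thalamic relay neurons (chr14:31411938-31411997), read 13.56, 13.70, 13.51 and 11.62 in HT and 8.34, 8.36, 8.19 and 8.54 in FC. Its difference of 4.93 ± 0.60 (adjusted p = 3.14e-06) was smaller within slide 2, at 3.28, where the HT array was that of mouse L58. The synaptic adhesion gene Slitrk6 (4.78 ± 0.37), the G protein regulator Rgs16 (3.51 ± 0.39), the troponin gene Tnnt1 (3.23 ± 0.49) and the Wnt factor Lef1 (2.71 ± 0.34) were called as well. So were the homeobox genes Irx1 (3.45 ± 0.32), Irx2, Irx3 and Irx5 and the zinc finger genes Zic1 (2.55 ± 0.31) and Zic4 (2.43 ± 0.32). Irx2, Irx3 and Irx5 were dim on every FC array. Irx5 was at least 5.22-fold higher in HT, and the fits of 6.29-fold for Irx2 and 13.9-fold for Irx3 are approximate.

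The remaining thalamic genes were weaker. Synpo2 (0.83 ± 0.25, adjusted p = 0.0113) and Ptpn3 (1.02 ± 0.34, adjusted p = 0.022) were not called, although both were without the FC array of mouse L56 (1.30 and 1.33). The array of mouse L58 was the lowest HT array for 16 of the 21 genes, among them Rora, a nuclear receptor, which read 12.41, 12.70, 12.60 and 11.37 in HT and 10.78 to 11.27 in FC. After slide adjustment 15 of the 21 genes were called and their median was 3.13. Plekhg1, Adarb1, Ramp3 and Irx2 were called without the slide but not with it (adjusted p = 0.0146, 0.0232, 0.0232 and 0.015).

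The habenula borders the thalamus, and its genes were present on some HT arrays. None of 7 was called by limma (3 had an unadjusted p under 0.05), with a median of 0.87. Pou4f1, a factor of medial habenular neurons, read 8.82, 9.15, 5.66 and 5.82 in HT and 4.92 to 5.66 in FC. The habenular receptor gene Gpr151 followed the same order, at 7.32, 8.06, 4.93 and 5.65. Both genes, chosen after their values were seen, were thus raised on the HT arrays of mice L52 and L54 and near the FC range on the other pair.

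Dopamine neuron genes were a further group on the HT arrays. The dopamine transporter gene Slc6a3 (chr13:73715973-73716032) ranked 3 among named genes and read 14.61, 12.54, 13.08 and 13.69 in HT and 6.47, 8.50, 5.75 and 6.88 in FC. The gap between the groups was over 4, and the difference was 6.56 ± 0.89, or 94.3-fold (adjusted p = 1.07e-05). Foxa1, a factor of ventral midbrain dopamine neurons, was at least 34.4-fold higher in HT, the nicotinic receptor gene Chrna6 was higher by 4.61 ± 0.66 and the receptor gene Ret by 3.91 ± 0.42. After these values were seen, a list of 17 genes of midbrain dopamine neurons was drawn up, and 13 of the 16 tested were called higher in HT with a median of 2.67, so the list describes these arrays and is no independent evidence. With slide adjustment 8 of the 16 were called higher in HT, and the median was 3.52. The mean of the 16 genes was 10.40, 9.25, 9.42 and 10.03 on the HT arrays and 6.58 to 7.27 on the FC arrays. Tyrosine hydroxylase (Th), which hypothalamic and olfactory bulb neurons also make, read 14.10, 12.39, 12.93 and 13.80 in HT and 9.62, 13.27, 9.66 and 9.75 in FC, where mouse L54 was high. Its call (2.69 ± 0.72, adjusted p = 0.0055) was lost after slide adjustment (adjusted p = 0.108). Of 14 midbrain and hindbrain genes, 8 were tested and 3 called, Slc6a3, the midbrain factor En2 and Fev, of which Slc6a3 alone stayed called after slide adjustment (En2, adjusted p = 0.0342). The hindbrain genes Hoxa3, Hoxb2 and Hoxb3 and the serotonin enzyme gene Tph2 were well above background on at most 1 array of either group, and the serotonin neuron factor Fev was called (1.26 ± 0.23) but stood at -0.024 after slide adjustment.

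Transmitter genes divided the regions by the glutamate transporter they used. Slc17a6, the vesicular glutamate transporter of the diencephalon, read 12.80, 13.12, 13.06 and 12.90 in HT and 8.81, 8.75, 8.89 and 9.47 in FC. Slc17a7, its cortical counterpart, read 8.44, 8.74, 8.88 and 7.46 in HT and 12.40, 11.82, 12.04 and 12.26 in FC. Both pairs of groups were tight and did not overlap, with differences of 3.97 ± 0.44 (adjusted p = 1.25e-06) and -3.57 ± 0.57 (adjusted p = 5.47e-05). Of 17 genes tested, 8 were called higher in HT (against 4.33% of all transcripts) and only Slc17a7 higher in FC. The monoamine genes Ddc (2.98 ± 0.46) and Slc18a2 (2.65 ± 0.54) and the histamine enzyme gene Hdc (2.77 ± 0.77) were higher in HT. Hdc, a marker of the tuberomammillary nucleus, read 8.77, 9.54, 10.65 and 11.63 in HT and 6.10 to 7.67 in FC. The GABA genes Gad1 (-0.05 ± 0.23), Gad2 (0.64 ± 0.23) and Slc32a1 (0.39 ± 0.16) were not called.

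**Figure D3:**
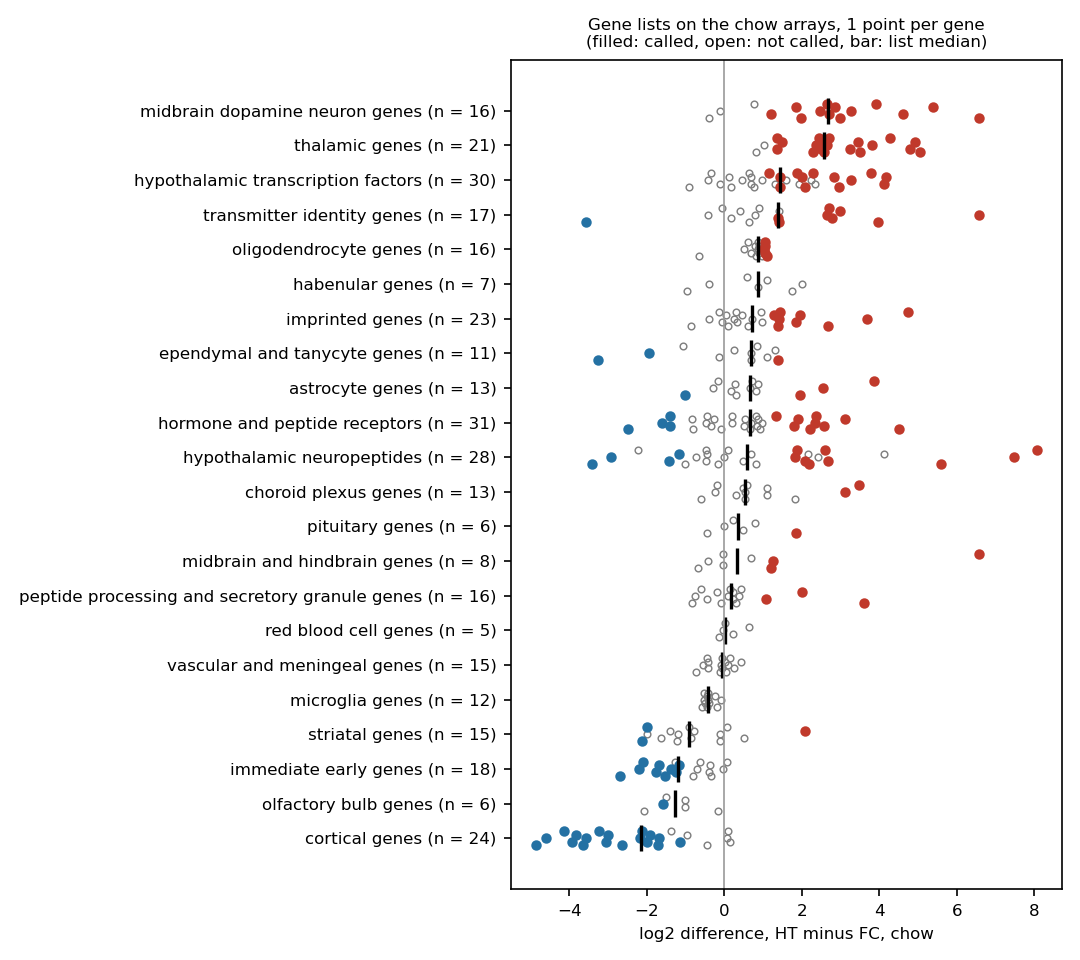
Fitted log2 difference HT minus FC on chow (x axis) of each tested member of 22 gene lists (y axis, ordered by their median), with filled points for called genes (red higher in HT, blue higher in FC), open points for the others and a bar at the list median. Thalamic genes (median 2.57) lie to the right of 0 throughout, peptide genes spread from -3.41 to 8.06, and cortical genes (median -2.15) lie mostly to the left.

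Receptors through which hormones and peptides act were called in both directions. Of 31 tested, 9 were higher in HT and 4 were higher in FC (against 4.33% and 3.96% of all transcripts), with a median of 0.66. Calcr, the calcitonin and amylin receptor gene (chr6:3635940-3635999), read 9.08, 7.53, 9.32 and 10.49 in HT and 3.74, 4.04, 4.59 and 5.03 in FC. No FC array was well above background, so the fitted difference of 4.49 ± 0.59, or 22.5-fold (adjusted p = 7.93e-06), is approximate. The prolactin receptor gene Prlr (3.12 ± 0.65), the melanocortin receptor gene Mc3r (2.58 ± 0.27), the neurokinin receptor gene Tacr3 (2.36 ± 0.41) and the thyrotropin-releasing hormone receptor gene Trhr (1.34 ± 0.26) were also higher. The ghrelin receptor gene Ghsr was dim in FC and well above background on 3 of 4 HT arrays, at least 3.03-fold higher (adjusted p = 0.000356). Higher in FC were Cckbr (-2.48 ± 0.32), Mchr1, the receptor of melanin-concentrating hormone (-1.59 ± 0.18), Sstr2 (-1.41 ± 0.39) and Crhr1 (-1.39 ± 0.19). The leptin receptor gene Lepr (0.69 ± 0.17), the insulin receptor gene Insr (-0.26 ± 0.07) and the melanocortin receptor gene Mc4r (0.19 ± 0.25) stayed under the 2-fold threshold. After slide adjustment Prlr, Trhr, Mchr1, Sstr2 and Crhr1 were not called (adjusted p = 0.0509, 0.0102, 0.0111, 0.108 and 0.011).

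Of 16 secretory granule genes, 3 were called, all higher in HT (18.8%, against 4.33% of all transcripts), and the median was 0.19. Baiap3, which acts in dense-core vesicle release, read 10.08, 9.47, 10.41 and 11.41 in HT and 5.28, 6.68, 5.91 and 8.06 in FC (3.60 ± 0.57). The granule gene Resp18 (1.99 ± 0.25) and the granin gene Scg2 (1.08 ± 0.22) were the others, and Scg2 fell below 2-fold without the HT array of mouse L58 (0.96) or the FC array of mouse L56 (0.99). The convertase and peptidase genes Pcsk1 (0.43 ± 0.34), Pcsk2 (-0.75 ± 0.13) and Cpe (0.22 ± 0.08) were not called.

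Imprinted genes, expressed from a single parental allele, were called higher in HT in 9 of 23 cases (against 4.33% of all transcripts). None was called higher in FC, and the median was 0.71. Dlk1, a Notch-like ligand (chr12:110698502-110698561), read 11.95, 10.83, 11.74 and 12.43 in HT and 5.45, 6.27, 6.51 and 8.39 in FC. Magel2, a gene of the Prader-Willi region (chr7:69526370-69526429), read 11.54, 10.89, 11.58 and 12.37 in HT and 7.78, 7.28, 7.49 and 8.62 in FC. Neither gene overlapped, and the differences were 4.74 ± 0.62 (adjusted p = 6.88e-06) and 3.69 ± 0.41 (adjusted p = 1.14e-06). Asb4 (2.67 ± 0.26), Peg10 (1.96 ± 0.30), Ndn (1.44 ± 0.27) and Nnat (1.39 ± 0.39) were called, whereas Meg3 (0.03 ± 0.11) and Snrpn (-0.13 ± 0.10) were not.

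The list of cortical genes ran the other way, with 18 of 24 called higher in FC (against 3.96% of all transcripts). None was called higher in HT, and the median was -2.15. Neurod6, a factor of cortical pyramidal neurons (chr6:55628006-55628065), read 4.97, 5.12, 7.42 and 6.12 in HT and 12.06, 10.19, 11.51 and 10.55 in FC, and it was well above background on 3 of 4 HT arrays. The groups were more than 2 units apart, and the difference was -4.85 ± 0.77 (adjusted p = 5.38e-05). Neurod2 (-4.59 ± 0.67), the dorsal telencephalic factor Emx1 (-4.12 ± 0.48) and the subcerebral projection factor Fezf2 (-3.92 ± 0.49) followed. On the HT arrays Emx1 read 5.02, 5.14, 6.33 and 5.17. The layer genes Rorb (0.08 ± 0.18), Etv1 (0.09 ± 0.23), Cux1 (0.14 ± 0.12) and Rprm (-1.37 ± 0.50) were not called, nor were Cux2 (-0.97 ± 0.21) and Rasgrf2 (-0.43 ± 0.17). After slide adjustment 12 of the 24 were called.

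Outside the lists, genes higher in FC with non-overlapping arrays included Dkkl1 (-4.23 ± 0.56), Dtl (-4.15 ± 0.35), the atrial myosin light chain gene Myl4 (-4.12 ± 0.56), Gm501 (-4.04 ± 0.33), the potassium channel gene Kcnh3 (-4.00 ± 0.40), the sarcomere gene Tcap (-3.99 ± 0.33) and the hexokinase-like gene Hkdc1 (-3.97 ± 0.53). Gm5771, dim on every HT array, was at least 13.9-fold higher in FC (adjusted p = 3.75e-05). On the other side, Shox2, a homeobox gene known from the thalamus, read 9.63, 9.87, 9.38 and 8.10 in HT and 3.47, 4.46, 3.84 and 2.99 in FC, where no array was well above background. It was at least 37.6-fold higher in HT (adjusted p = 4.08e-05). Arhgap36, read at 11.49, 10.42, 11.56 and 12.49 in HT and 6.14, 5.44, 5.71 and 8.37 in FC, was higher by 4.87 ± 0.71 (adjusted p = 2.28e-05). On 1 FC array, that of mouse L58, Arhgap36, Dlk1, Avp and Gbx2 were all at their FC maximum, a set chosen after the values were seen.

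Genes regulated by neuronal activity, listed as immediate early genes, were called higher in FC in 9 of 18 cases (against 3.96% of all transcripts). None was called higher in HT, and the median was -1.21. Homer1 read 9.53, 10.05, 10.04 and 9.33 in HT and 11.99, 11.86, 12.35 and 11.77 in FC (-2.19 ± 0.16, adjusted p = 8.82e-09), and both of its transcripts were called. Egr4 (-2.68 ± 0.41), Egr2 (-2.10 ± 0.40), Egr1 (-1.75 ± 0.25), Nr4a1 (-1.68 ± 0.23) and Fosb (-1.53 ± 0.21) were lower in HT. Fos itself (-0.03 ± 0.21), Arc (-0.63 ± 0.30) and Bdnf (-1.28 ± 0.47) were not called. After slide adjustment 5 of the 9 calls held, and those of Fosl2, Egr2, Egr3 and Npas4 did not (adjusted p = 0.203, 0.054, 0.0305 and 0.0491).

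Markers of other cell types and neighboring tissue were measured beside these groups, and their part in the results was not tested. Oligodendrocyte genes had a median of 0.88, and 14 of 16 did not overlap between the groups and were higher in HT (against 15.9% of all transcripts), but only 5 were called. They were the myelin and junction genes Mal (1.09 ± 0.19), Mobp, Cldn11 and Ermn and the gene Opalin, and each of the first 4 fell below the threshold without at least 1 array, all 4 without the FC array of mouse L58. After slide adjustment Mobp, Cldn11, Ermn and Opalin were not called (adjusted p = 0.0281, 0.0262, 0.209 and 0.273). Astrocyte genes were called higher in HT in 3 of 13 cases (against 4.33% of all transcripts). They were Agt, the angiotensin precursor gene (3.87 ± 0.45), Itih3 (2.54 ± 0.37) and the GABA transporter gene Slc6a11 (1.95 ± 0.31). The glutamate transporter gene Slc1a2 was higher in FC (-1.0 ± 0.11) at the 2-fold limit. Slc1a2 fell below that limit after slide adjustment (-0.81) or without the FC array of mouse L56 (-0.87) or the HT array of mouse L52 (-0.97) or L58 (-0.92). Of 12 microglia genes, 15 vascular and meningeal genes and 5 red blood cell genes, none was called by limma (10, 2 and 1 had an unadjusted p under 0.05), with medians of -0.43, -0.06 and 0.01.

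The mean of the 13 choroid plexus genes was 7.05 to 8.12 in HT and 6.01 to 6.81 in FC. Ttr, the defining transcript of choroid plexus, read 14.02, 11.73, 9.41 and 9.13 in HT and 8.48, 10.40, 11.50 and 7.82 in FC, and the groups overlapped. Only Otx2 (3.48 ± 0.73) and Prlr of the list were called, and neither after slide adjustment (adjusted p = 0.0165 and 0.0509). Of the 12 pituitary genes, 6, Prl among them, did not pass the filter, and Gh and Tbx19 were not well above background on any of the 8 arrays. The mean of the 6 tested, Pomc among them, was 7.48 to 8.00 in HT and 6.96 to 7.41 in FC. The called member, the luteinizing hormone gene Lhb (1.84 ± 0.24), stood at 0.18 after slide adjustment and at -0.056 within slide 2. Of 11 ependymal and tanycyte genes, Foxj1 was higher in HT (1.38 ± 0.27) and Dio2 and Crym were higher in FC. Crym read 9.06, 13.13, 9.44 and 11.30 in HT against 13.44 to 14.14 in FC, with mouse L54 highest in HT. The calls of Foxj1 and Crym were lost after slide adjustment (adjusted p = 0.028 and 0.266), and that of Crym without any 1 of 7 of the 8 arrays, the exception being the HT array of mouse L54 (adjusted p = 0.0109 to 0.0286).

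Striatal genes varied among the arrays of both groups, and olfactory bulb genes marked the FC array of mouse L54. The mean of the striatal genes was 8.86 on the FC array of mouse L52 and 10.35 to 10.72 on the other FC arrays. Among 15 striatal genes, Ppp1r1b and Meis2 were called higher in FC and Isl1 higher in HT, and the median was -0.90. After slide adjustment the median was -0.38, and Ppp1r1b and Meis2 were not called (adjusted p = 0.267 and 0.0299). The adenosine receptor gene Adora2a, a marker of striatal projection neurons, read 8.05, 10.53, 8.07 and 8.04 in HT, where mouse L54 was raised, and 7.36, 8.82, 10.63 and 10.73 in FC, where mouse L52 was lowest. The call of Ppp1r1b (-2.11 ± 0.60) was lost without any 1 of 6 of the 8 arrays, the exceptions being the FC array of mouse L52 and the HT array of mouse L54 (adjusted p up to 0.0305). Of 6 olfactory bulb genes, Omp, a gene of olfactory sensory axons, read 13.45 on the FC array of mouse L54 and 7.15 to 7.25 on the other FC arrays, and Reln alone was called (-1.59 ± 0.20). The call of Reln was lost after slide adjustment (-1.13, adjusted p = 0.0388). Without the FC array of mouse L54 and the HT array of mouse L58, 7 peptide genes, 11 hypothalamic transcription factors, 20 thalamic genes and 18 cortical genes were called.

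The same regions in the CM mice, which share no array with the chow comparison, gave 2933 called transcripts (9.34%). Every CM HT array lay on slide 2 and every CM FC array on slide 3, so within these mice region and slide cannot be told apart. Of the 2603 chow calls, 2213 (85%) had the same sign in CM mice, against 65.5% of all transcripts, and 1675 were called in the same direction (64.3% of the chow calls and 57.1% of the CM calls). Only 25 were called in opposite directions. In CM mice 12 of 28 peptide genes, 20 of 30 hypothalamic transcription factors and 20 of 21 thalamic genes were called higher in HT and 17 of 24 cortical genes higher in FC. Over all 31395 transcripts, 1570 were called higher in HT and 1363 higher in FC in these mice. Pmch differed by 6.10 ± 0.89 (adjusted p = 7.27e-06), Hcrt by 5.82 ± 0.90 (1.52e-05), Tcf7l2 by 4.44 ± 0.35 (1.52e-09) and Tbr1 by -4.05 ± 0.37 (1.62e-08). Hcrt read 16.60, 16.03, 16.37 and 13.05 on the CM HT arrays of mice O52 to O58, so that 1 array of 4 was again lower. Pomc read 9.26, 11.21, 11.88 and 9.10 on them, raised in mice O54 and O56.

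Diet was tied to the slide within each region, so that diet and slide cannot be told apart. The regional difference itself differed between SC and CM at 6095 transcripts (19.4%, adjusted p under 0.05), but at 0 after slide adjustment (1585 at an unadjusted p under 0.05), at 585 with the slide as a random term and at 175 with slide and mouse both fixed. Among genes with a name, the 5 with the smallest p for that difference were Olfr94, Olfr319, Lhb, Amac1 and Raet1b. For Hcrt, Pmch, Oxt, Tcf7l2 and Tbr1 the difference between the diets did not pass (adjusted p = 0.496, 0.407, 0.897, 0.878 and 0.712). Of the 131 list genes called on chow, 129 had the same sign in CM mice and 130 after slide adjustment.

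**Figure D4:**
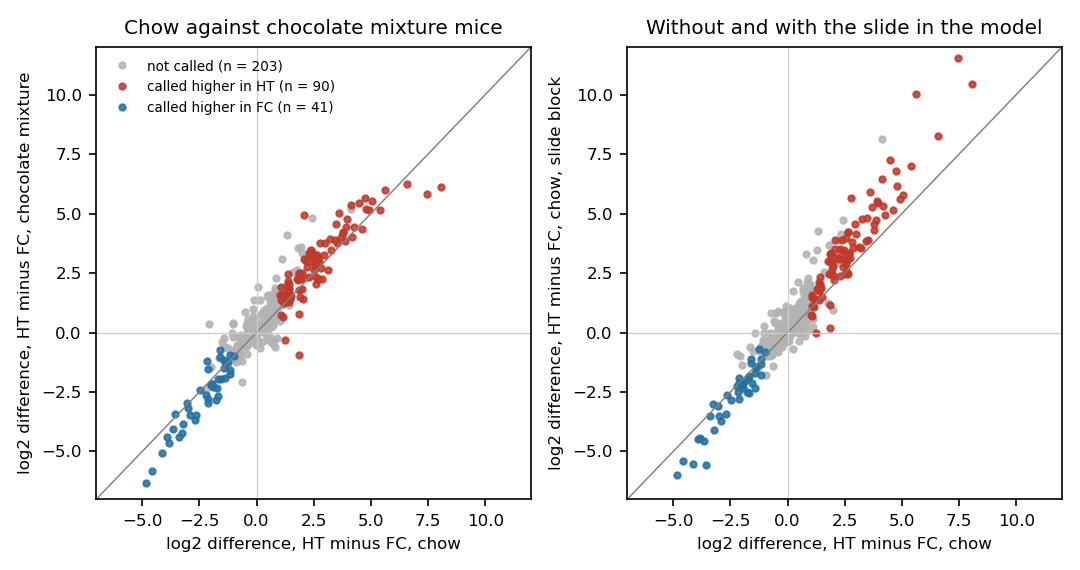
Fitted log2 difference HT minus FC of 334 list genes on chow (x axis) against the same difference in CM mice (left, y axis) and on chow after slide adjustment (right, y axis), with the line of equality and red, blue and gray points for genes called higher in HT (90), higher in FC (41) or not called (203). The called genes keep their sign except Fev and Lhb on the left and Fev on the right, and the largest differences are larger after slide adjustment.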

How the data were processed

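Values came from single-color Agilent SurePrint G3 arrays scanned with Feature Extraction (version 10.7.3.1 per the labels). Scanner intensity was deposited for each array, and the authors also deposited a table of normalized log2 values of 31395 transcripts, which was rebuilt from the scanner intensities (normexp background correction, quantile normalization, average per transcript) to within 5e-09. The other columns used, flags of 0 or 1 for each spot, were deposited with the intensities. A spot was kept if, on 4 or more arrays, it was brighter than 1.1 times percentile 95 of the 308 negative control spots.

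Groups came from the labels. limma (3.58.1, R 4.3.3) was fitted to all 23 arrays with a mean for each of 6 groups, a weight for each array and mice as random blocks (correlation -0.04, 17 residual degrees of freedom), and p-values were adjusted by the Benjamini-Hochberg method over all transcripts. HT and FC arrays of 1 mouse are paired by the mouse named in the labels, and the deviations of the 2 arrays of a mouse correlated at -0.01, 0.05, 0.02 and 0.13. Exact permutation of 4 against 4 arrays can reach no p below 0.0286. For each gene the transcript with the highest mean was used. RefSeq tables matched 20203 transcripts (64.4%), and probe positions are those of mm9 given with the arrays. Simulated data were used to test the scripts. The arrays, the gene lists and the comparisons were chosen with earlier results of these data known. A set of 116 genes, called named genes in the closing sections, followed a rule. It held the 5 markers, the 12 largest differences in each direction among called genes with non-overlapping arrays, and all peptide and thalamic genes. It also held the largest called members of the other lists, members called against their list's direction and 5 genes of the diet difference. Further list members printed above, such as Hdc, Th, Nkx2-1, Fos and Adora2a, were picked outside this rule, and counts of named genes do not cover them. Alternatives changed the block, the weights, the normalization, the filter, the threshold and the arrays. Some genes are not reported here.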

Additional observations from a re-analysis of the deposited data

Results flagged for a closer look

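Single arrays stood apart from the other 3 of their group in 30 of 276 groups of 4 arrays examined. Chance marks about 1 in 20 of independent groups, but these groups share the same arrays, so the 30 cannot be read as an excess over it. All values are normalized log2 signals, and no cause was tested.

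On the HT array of mouse L58, Pomc (12.80), Agrp (10.89), Kiss1 (9.55) and the mean of the pituitary genes (8.00) were high. Pomc is a member of the pituitary list, so that mean is not separate from its value. On the same array Prkcd (11.62), Lef1 (11.48), Adarb1 (14.59), Tnnt1 (12.03), Cck (15.25), Olfr319 (7.35) and Raet1b (8.95) were low. The HT array of mouse L54 had low Hcrt (13.24) and a high mean of the striatal genes (10.40). On the HT array of mouse L56, Emx1 was high (6.33) and Myl4 was low (9.46).

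The FC array of mouse L54 was high in the olfactory bulb genes (mean 11.44), Meis2 (14.15), Kcnh3 (15.06), Slc6a11 (10.66) and Dio2 (12.53) and low in Sst (13.67). The FC array of mouse L52 was high in Vip (11.70), Lhb (7.27), Adcyap1 (11.11) and Olfr319 (8.40) and low in Penk (13.16) and Mchr1 (7.50). On the FC array of mouse L58, Avp (10.07) and Amotl1 (6.11) were high, and on that of mouse L56 Zic4 was low (5.95).

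For 12 of the 116 named genes the HT minus FC difference itself differed between the diets (limma, adjusted p under 0.05). On the log2 scale, the signed SC minus CM value was positive for Lhb (2.79), Olfr319 (2.46), Olfr94 (2.40), Raet1b (2.37) and Hkdc1 (1.92). It was also positive for Amac1 (1.70), Fev (1.59), Gnrh1 (1.15) and Egr1 (1.07), and negative for Nts (-2.88), Mchr1 (-0.86) and Mobp (-0.84). The sign does not give the size of the regional difference. Hkdc1 (-3.97 on chow, -5.89 in CM mice) and Egr1 (-1.75 and -2.82) differed less between regions on chow. Mchr1 (-1.59 and -0.73) differed more on chow. After slide adjustment the adjusted p was 1 for each of the 12.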

How the results depend on the processing

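Of the 97 named genes called, between 67 and 97 kept direction and call under each of the 29 fitted alternatives, and the exceptions to direction were Fev and Raet1b. With the slide as a fixed block Fev stood at -0.024 and Raet1b at -0.18, with the mouse as a fixed block added at -0.025 and -0.22, and within slide 2 at -0.069 and -0.54, where Lhb stood at -0.056. The slide as a fixed block gave 1633 calls (747 higher in HT), 1681 in CM mice and 11 hypothalamic transcription factors among the 100 leading genes, and the difference between diets passed at 0 transcripts. It passed at 585 with the slide as a random block, 175 with slide and mouse as fixed blocks and 1238 without array weights. With slide and mouse fixed the 100 leading genes held 11 hypothalamic factors and 8 thalamic genes, and without array weights 10 hypothalamic factors. An offset of 50 gave 1646 calls (820 higher in HT, 826 in FC) and 1929 in CM mice, and the processed signal scaled to the 75th percentile gave 4169 (2890 higher in HT) and 4572. A threshold of 1.5-fold at an adjusted p under 0.05 gave 7137 calls (3929 and 3208; 6935 in CM mice), and no fold threshold gave 13374 (7064 and 6310; 18022 in CM mice).

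With the mouse as a fixed replicate block, which uses the pairing of both regions by mouse, 2816 transcripts were called, and 2617 with no block. Of the named calls only Mal and Mobp were lost under that block. Leaving out each HT or FC chow array in turn gave 2443 to 2804 calls (1224 to 1531 in HT, 1172 to 1302 in FC), 2930 to 2944 in CM mice and 4049 to 7745 for the difference between diets, the lowest without the HT array of mouse L56. It gave 6 to 10 peptide genes, 12 to 14 hypothalamic factors, 19 to 21 thalamic and 18 to 19 cortical genes called, and 4 to 9, 6 to 9 and 11 to 16 of the first 3 lists among the 100 leading genes. Precision is limited by 4 arrays a group and by probes dim in 1 region.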
